A study of Macaca mulatta with 24 samples.

Results

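APAF1, BIRC2, BCL2, BCL2L1, BCL2L11, BAX, BAK1, BBC3, DIABLO and ENDOG are 10 regulators of the mitochondrial route of apoptosis. Their signal was followed through the layers of the lateral geniculate nucleus (LGN), the thalamic relay of vision, in monocularly deprived rhesus macaques (Macaca mulatta). Every probe set to which the platform annotation of the Rhesus Macaque Genome Array gives 1 of these symbols, and no other, was taken. This gave 25 of 52766 probe sets, and 10 of the 14132 symbols that probe sets carry. Of the 25, 22 had a signal of at least 100 in at least 1 array and were tested with 37623 probe sets in all. Each gene kept at least 1 probe set. BCL2L1 lost 2 of its 4 probe sets and BCL2L11 lost 1 of its 6, none of which reached 100 in any array.

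In this route, BAX and BAK1 form pores in the outer membrane of mitochondria. BCL2 and BCL2L1 (BCL-xL) hold them back, and the BH3-only proteins BCL2L11 (BIM) and BBC3 (PUMA) relieve that hold. Proteins then leave the mitochondrion: cytochrome c binds APAF1 to build the apoptosome that activates caspase-9, DIABLO (Smac) displaces inhibitor of apoptosis proteins such as BIRC2 (cIAP1) from their partners, and ENDOG is a mitochondrial nuclease that can cut nuclear DNA. In the LGN, closing an eye in infancy is known to make the relay neurons driven by that eye shrink.

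The arrays came from 2 animals, each deprived of vision in the left eye from birth. One animal wore an opaque contact lens for 2 months, and the other had its lids closed by suture (tarsorrhaphy) for 4 months. Duration, animal and method of deprivation therefore cannot be told apart. Both LGNs of each animal gave 6 layers by laser capture, with the koniocellular layers left out, tissue of several sections pooled for each layer, and 2 rounds of RNA amplification before hybridization. Deprived layers, those driven by the closed eye, were layers 2, 3 and 5 on the ipsilateral side and layers 1, 4 and 6 on the contralateral side, and the other layers were nondeprived. There were 8 deprived and 8 nondeprived parvocellular arrays (layers 3 to 6), and 4 deprived and 4 nondeprived magnocellular arrays (layers 1 and 2). The nondeprived layers lie in the same nuclei as the deprived ones and are not from untreated animals. P-values measure the spread between layers of 2 animals, not between animals.

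The 24 arrays had nearly the same scaled mean, and their median signals lay between 60.5 and 131. One array stood apart, deprived ipsilateral layer 2 of the 2-month animal (magnocellular): its 3′ to 5′ ratio of the GAPDH control probes was 50.8, against 1.97 to 14.3 in the other 23 arrays, and its mean correlation with the rest was 0.811, against 0.885 to 0.919. Contralateral layers 3 and 4 of the 2-month animal had high median signals, 112 in the nondeprived layer 3 and 111 in the deprived layer 4. Both measured markers of relay neurons, TCF7L2 and PVALB, were bright in every group, their summed signal being 43190 to 71043 over the 12 deprived arrays and 44764 to 69613 over the 12 nondeprived arrays. CAMK2A, the 1 measured marker of koniocellular neurons, was dim in parvocellular layers, at 8.0 to 51.0 where they were deprived and at 4.08 to 48.5 where they were not. In magnocellular layers CAMK2A ran from 6.54 to 175 (median 36.6) in deprived and from 6.30 to 37.4 (median 23.5) in nondeprived arrays. The paper reports CAMK2A as higher in deprived layers by array and by quantitative PCR. Its readings therefore do not measure koniocellular content alone, and dim readings cannot show that such cells are absent.

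The first question was whether these genes differ between deprived and nondeprived parvocellular layers. No member passed an adjusted p of 0.05: 0 of 22 probe sets were called, where 0.97% of all probe sets tested were (365 of 37623, with 220 higher in deprived layers and 145 lower). At an unadjusted p under 0.05 there were 4 of 22, against 11.4% of all probe sets. The median log2 fold change, deprived over nondeprived, was 0.05 over the members and -0.01 over all probe sets, and 13 of 22 members were positive, against 48.7% of all. Levels here are of bulk tissue, so that fewer cells of a type and less RNA per cell cannot be told apart.

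**Figure D1:**
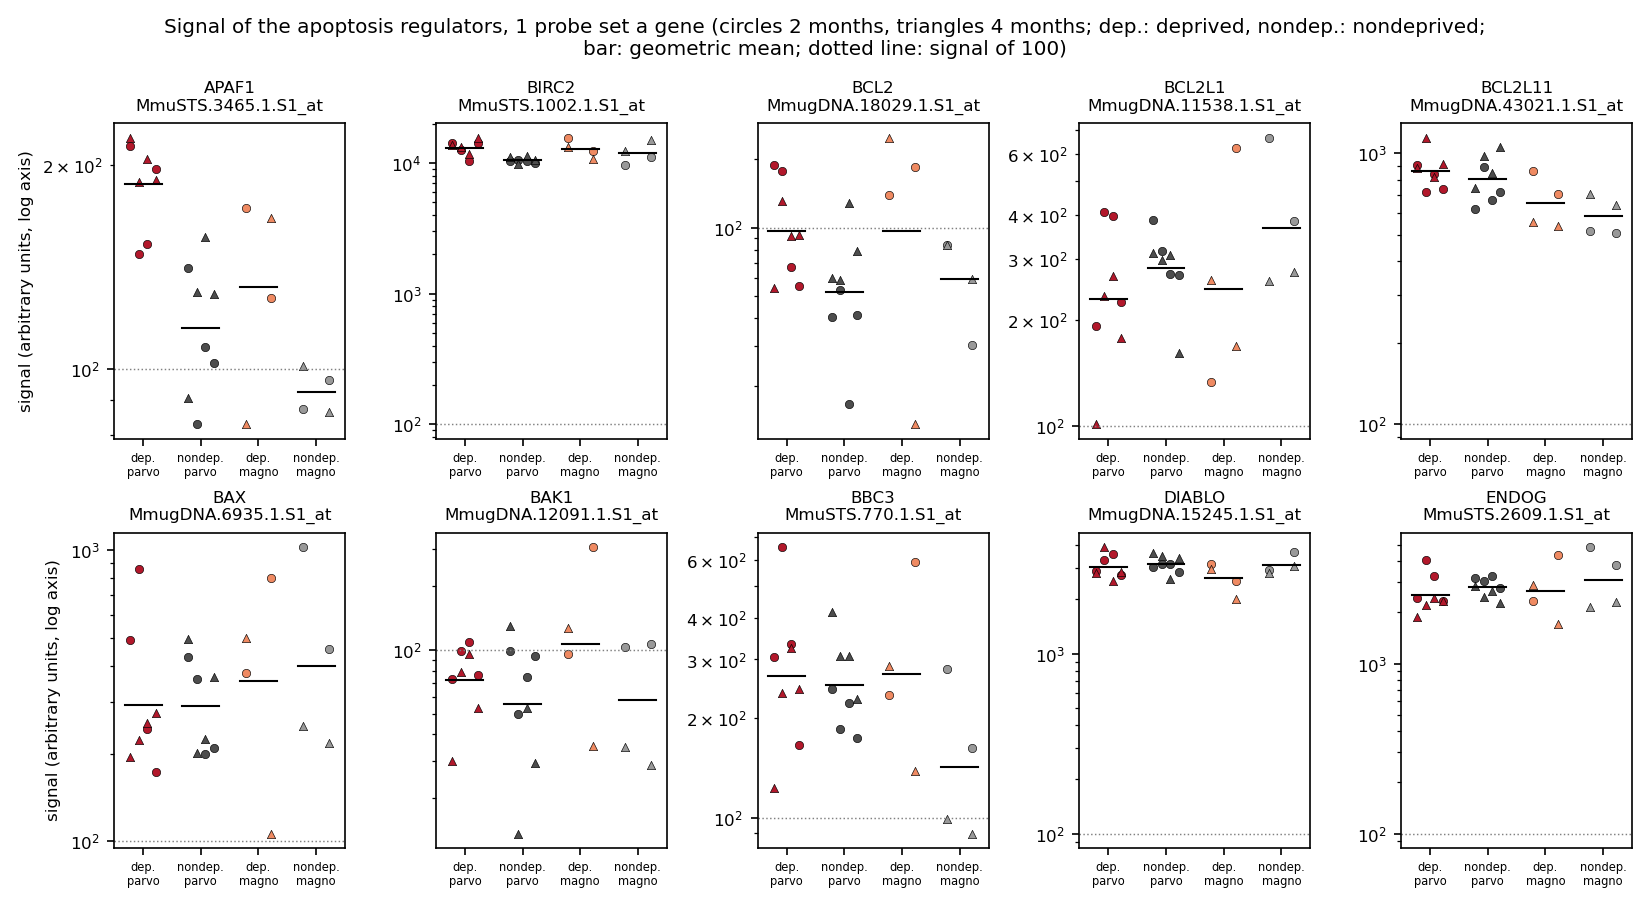
Signal of the 10 genes in 24 arrays, 1 panel a gene with the probe set of highest mean log2 signal; y, signal in arbitrary units on a log axis; x, the 4 groups; circles, 2 months; triangles, 4 months; bar, geometric mean; dotted line, signal of 100. APAF1 in deprived parvocellular layers lay between 148 and 220, with 6 of 8 arrays above every nondeprived parvocellular array. Its difference was not called.

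APAF1, the scaffold of the apoptosome, had the smallest p-value among the members. Its probe set MmuSTS.3465.1.S1_at read 148 at the lowest, 194 at the median and 220 (219.8) at the highest in the 8 deprived parvocellular arrays, against 83.1, 118 and 157 in the 8 nondeprived arrays. The groups overlapped slightly: 6 deprived arrays lay above the highest nondeprived one, and 7 nondeprived arrays lay below the lowest deprived one. The means were 189.5 ± 26.4 in deprived and 117.5 ± 25.6 in nondeprived layers (SD, n = 8 each). The log2 fold change was 0.71 (SE 0.19, 95% interval 0.32 to 1.09), with an adjusted p of 0.0733 in limma. The deprived layer was the higher one in 8 of 8 pairs within an LGN, by 0.38 to 1.28 on the log2 scale, and in all 4 LGNs. How many of all probe sets separate the groups or agree over pairs as far was not counted, here or for the members below. The difference was as large in each animal, 0.72 at 2 months and 0.69 at 4 months, and the change of the effect between them was -0.03 (95% interval -0.83 to 0.77).

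The other APAF1 probe sets gave smaller values. MmugDNA.37633.1.S1_at averaged 122 ± 17.8 in deprived and 119.7 ± 39.2 in nondeprived parvocellular layers, the log2 fold change being 0.08 (95% interval -0.36 to 0.52, adjusted p = 0.935). MmugDNA.37857.1.S1_at reached 100 in only 4 of 24 arrays and had a log2 fold change of -0.11 (95% interval -1.24 to 1.03). Intervals of the 3 probe sets overlap, and the difference between probe sets was not tested. Over all 24 arrays, with LGN means removed, the signal of MmuSTS.3465.1.S1_at had a correlation of 0.37 with the summed microglial markers, of 0.339 with GFAP and of 0.0547 with the GAPDH ratio, as a description over arrays that share animals.

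BIRC2, a ubiquitin ligase that restrains caspase activation and cell death signaling, came next. MmuSTS.1002.1.S1_at read 10323, 13505 and 15714 (lowest, median, highest) in deprived parvocellular arrays, against 9781, 10455 and 11376 in nondeprived ones. All but 1 of the deprived arrays lay above the highest nondeprived array; the exception was ipsilateral layer 3 of the 2-month animal. The means were 13222 ± 1693 in deprived and 10525 ± 547 in nondeprived layers (SD, n = 8 each). The log2 fold change was 0.32 (SE 0.09, 95% interval 0.13 to 0.51), the adjusted p in limma 0.0995, and 7 of 8 pairs and all 4 LGNs were higher in the deprived layer. The number of probe sets that separate as far was not counted. With each array left out in turn the log2 fold change ran from 0.28 to 0.37 and the adjusted p from 0.0494 to 0.221. The test was passed in 1 of those 16 cases, the one without that exceptional array. With only the 23624 probe sets whose mean signal was at least 100, 2 of 16 members passed in limma, as did 598 of all 23624. The 2 were APAF1 MmuSTS.3465.1.S1_at (adjusted p = 0.0409) and BIRC2 MmuSTS.1002.1.S1_at (adjusted p = 0.0497). Their log2 fold changes were the same as before, 0.71 and 0.32.

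A second BIRC2 probe set, MmuSTS.3470.1.S1_at, read 445 to 1254 in deprived parvocellular layers, against 497 to 855 in nondeprived ones, was higher in 7 of 8 pairs, and had a log2 fold change of 0.34 (95% interval -0.01 to 0.69, adjusted p = 0.45). The third, which ran between 102 and 334 over the 24 arrays, was at -0.06 (95% interval -0.44 to 0.33). The fourth ran between 10.5 and 433, and its log2 fold change was 0.25 (95% interval -0.72 to 1.21). The brightest readings of the fourth, 433 and 387, came from the magnocellular layers 2 of the 2-month animal, which have the 2 highest GAPDH ratios (14.3 and 50.8). Its correlation with the GAPDH ratio over 24 arrays was 0.703; the part of RNA quality in its values was not tested.

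**Figure D2:**
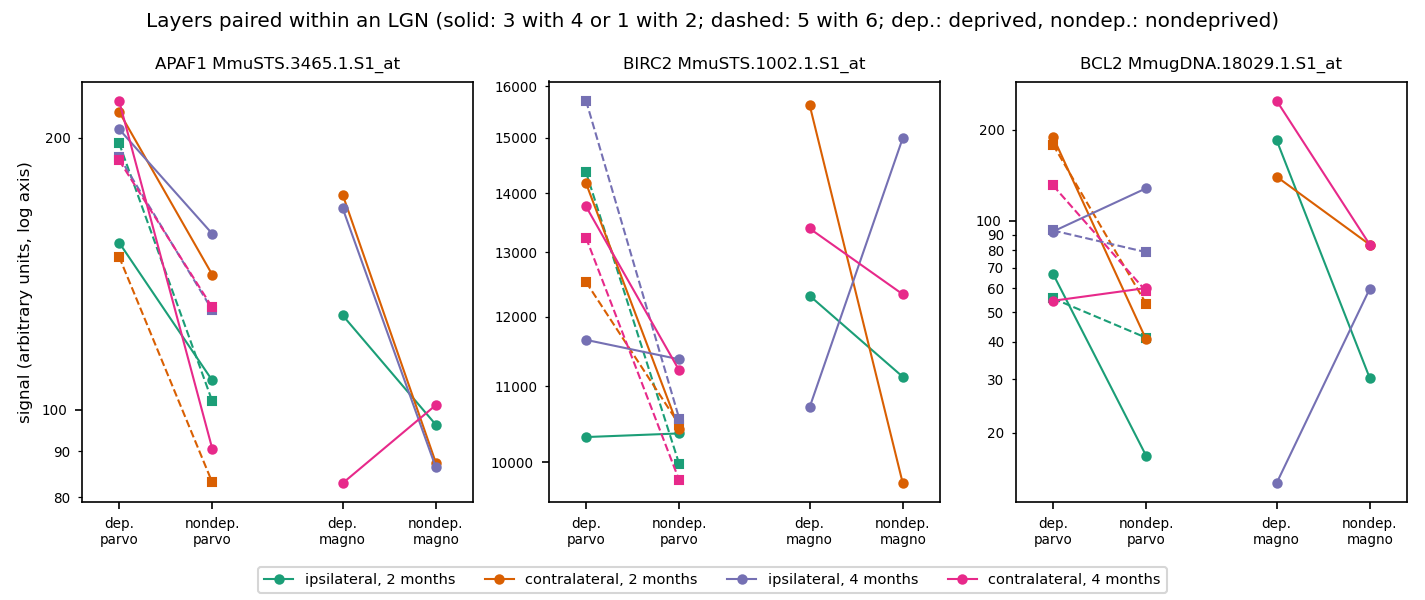
Signal of APAF1, BIRC2 and BCL2 in layers paired within an LGN, deprived left and nondeprived right; y, signal in arbitrary units on a log axis; colours, the 4 LGNs; solid lines join layers 3 with 4 or 1 with 2, dashed lines layers 5 with 6. APAF1 was higher in the deprived layer in 8 of 8 parvocellular pairs, BIRC2 in 7 and BCL2 in 6, and none of these genes was called.

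Among the guardians of the mitochondrion, BCL2 had the smallest p-value in parvocellular layers. Its only probe set was dim, at 54.5, 92.7 and 189 (lowest, median, highest) in deprived arrays, against 16.8, 55.9 and 128 in nondeprived arrays, and reached 100 in 3 of 8 deprived and 1 of 8 nondeprived arrays. The log2 fold change was 0.90 (SE 0.32, 95% interval 0.23 to 1.56; 0.63 with signals under 50 set to 50), the adjusted p in limma 0.231, and 6 of 8 pairs were higher in the deprived layer. The 2 animals gave different values, although no change between them passed the test. At 2 months the deprived layers read 189, 179, 66.9 and 55.5, against 40.6, 53.3, 16.8 and 41.2 in nondeprived layers. These groups did not overlap, but the lowest deprived reading, 55.5, lay close to the highest nondeprived one, 53.3. The number of probe sets that separate them in the same way was not counted. At 4 months the deprived layers read 131, 93.0, 92.3 and 54.5, against 128, 78.9, 60.1 and 58.6. The fitted effect was 1.60 at 2 months and 0.20 at 4 months. Their difference was -1.40 (95% interval -2.60 to -0.20), with an unadjusted p of 0.0244 and an adjusted p of 0.973 in limma. Over 8 alternatives of the processing this difference ran from -1.40 to -0.86. All nondeprived readings at 2 months were under 100, so the size of the effect there is not known.

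BCL2L1 did not differ beyond its spread. MmugDNA.11538.1.S1_at read 101, 230.4 and 408 in deprived parvocellular arrays, against 161, 302 and 386 in nondeprived ones, with a log2 fold change of -0.29 (95% interval -0.78 to 0.20, adjusted p = 0.716). MmugDNA.27039.1.S1_at had 0.11 (95% interval -0.51 to 0.74). Its 3 highest readings, 241, 241 and 237, were those of the deprived layer 2 that stands apart and of the contralateral layers 4 and 3 at 2 months, the arrays of highest median signal, and its correlation with the median signal of the array was 0.746.

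The BH3-only genes went in no common direction. BCL2L11 MmugDNA.42322.1.S1_at read 13.2, 80.3 and 262 in deprived parvocellular arrays, against 79.0, 107 and 234 in nondeprived ones, and the nondeprived layer was the higher one in 6 of 8 pairs. Its log2 fold change was -0.77 (SE 0.36, 95% interval -1.52 to -0.02), with an adjusted p of 0.423 in limma. The 2 deprived arrays far below the others, at 13.2 and 25.6, were ipsilateral layers 5 and 3 of the 2-month animal. The remaining BCL2L11 probe sets gave -0.73 (MmugDNA.14051.1.S1_at), -0.18 (MmugDNA.31741.1.S1_at), 0.19 (MmugDNA.40381.1.S1_at) and 0.10 (MmugDNA.43021.1.S1_at), none with an adjusted p below 0.752. With signals under 50 set to 50, BCL2L11 MmugDNA.42322.1.S1_at was at -0.41 and the dim BCL2L11 MmugDNA.14051.1.S1_at at -0.00.

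BBC3, whose transcription p53 is known to induce, read 123, 275 and 655 in deprived parvocellular arrays, against 174, 236 and 416 in nondeprived ones. Its log2 fold change was 0.09 (95% interval -0.47 to 0.65, adjusted p = 0.946). As for BCL2, the fitted effects of the 2 animals lay apart without passing the test: the effect was 0.67 at 2 months and -0.49 at 4 months, a change of -1.16 (95% interval -2.15 to -0.16, unadjusted p = 0.0253, adjusted p = 0.973). The highest reading, 655, was that of contralateral layer 6 in the 2-month animal, which also held the highest BAX reading of the parvocellular layers. For the change of the deprivation effect between durations, 0 of 22 members were called and 0% of all probe sets, with 2 members and 3.89% of all at an unadjusted p under 0.05.

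Neither pore former was called. BAX MmugDNA.6935.1.S1_at read 172, 249 and 861 in deprived parvocellular arrays, against 199.5, 293 and 494 in nondeprived ones. Its log2 fold change was 0.00 (95% interval -0.44 to 0.45), and MmugDNA.6935.1.S1_s_at and MmugDNA.5655.1.S1_at gave -0.00 (95% interval -0.58 to 0.58) and 0.02 (SE 0.49). Values near 0 here average opposite signs in the 2 animals: the effects at 2 and 4 months were 0.36 and -0.36 for BAX MmugDNA.6935.1.S1_at, 0.29 and -0.29 for MmugDNA.6935.1.S1_s_at, and 0.93 and -0.89 for the dim BAX MmugDNA.5655.1.S1_at. For MmugDNA.5655.1.S1_at the change between durations was -1.82 (95% interval -3.74 to 0.09, unadjusted p = 0.061, adjusted p = 0.973 in limma). BAK1 was dim, at 29.8, 77.6 and 109 in deprived arrays, against 13.6, 63.9 and 130.2 in nondeprived ones, with a log2 fold change of 0.37 (95% interval -0.45 to 1.18, adjusted p = 0.814).

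The genes of proteins released from mitochondria had narrow intervals around small changes. DIABLO read 2516, 2839 and 3912 in deprived parvocellular arrays, against 2595, 3147 and 3615 in nondeprived ones, with a log2 fold change of -0.05 (SE 0.10, 95% interval -0.26 to 0.16, adjusted p = 0.917). ENDOG read 1879, 2382 and 4050 (4049.9) in deprived arrays, against 2274, 2824 and 3259 in nondeprived ones, with -0.14 (SE 0.12, 95% interval -0.38 to 0.10, adjusted p = 0.736). The nondeprived layers were the higher ones for ENDOG in 6 of 8 pairs and in 4 of 4 LGNs.

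**Figure D3:**
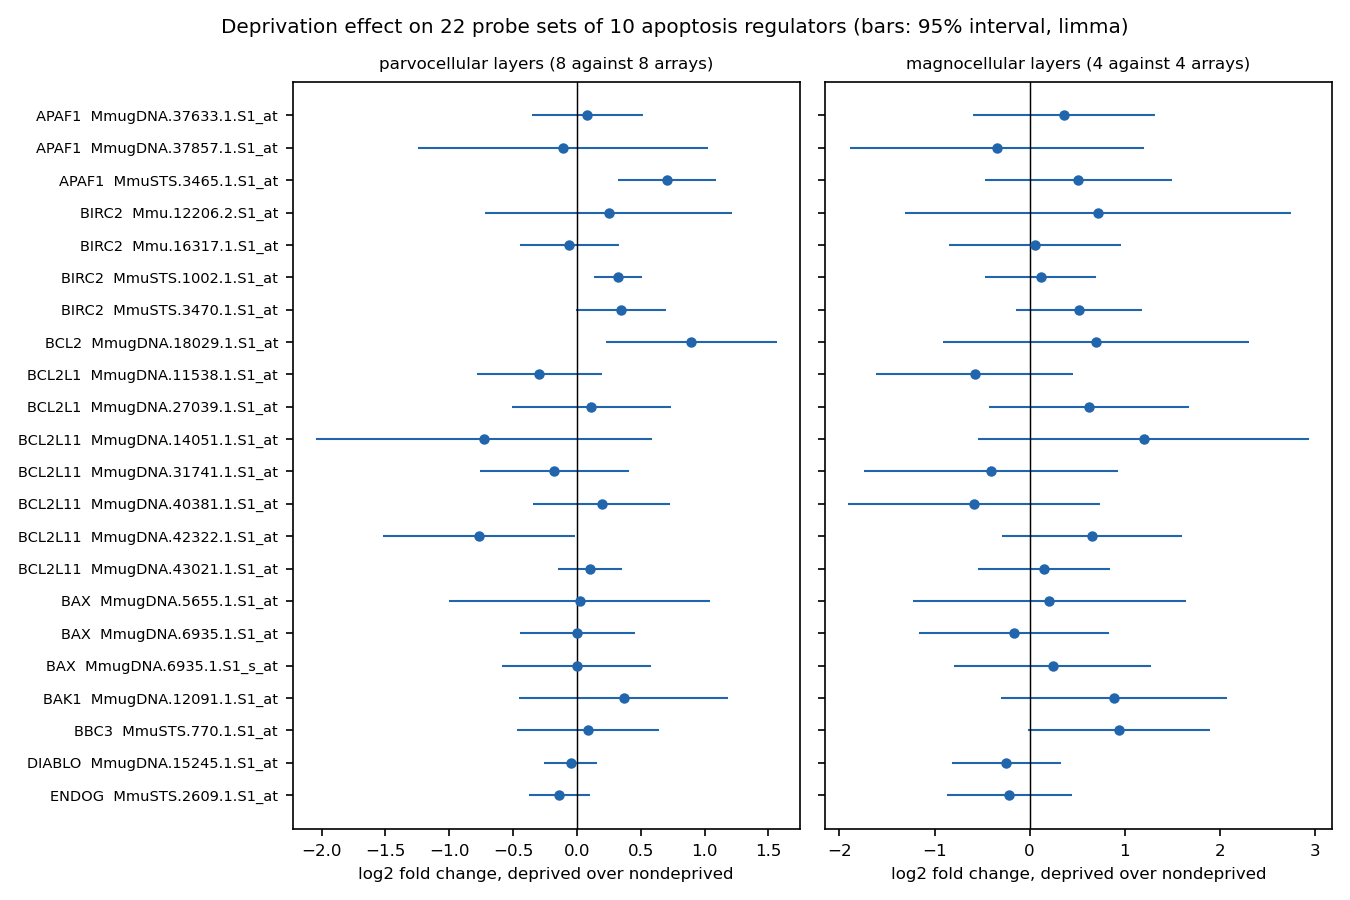
Deprivation effect (x, log2 fold change, deprived over nondeprived) for the 22 probe sets tested (y) in parvocellular layers (left, 8 against 8 arrays) and magnocellular layers (right, 4 against 4 arrays); bars, 95% intervals from limma before adjustment. In parvocellular layers the intervals of 1 probe set each of APAF1, BIRC2, BCL2 and BCL2L11 leave out 0, and in magnocellular layers none does.

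The methods' rule of a fold of 1.7 with a common direction in at least 6 of 8 pairs, here with the sign of the ratio in place of a change call, picked 2 members in parvocellular layers, BCL2 (higher in deprived layers) and BCL2L11 MmugDNA.42322.1.S1_at (lower), as against 3.44% of all probe sets tested. BCL2 is dim, while BCL2L11 MmugDNA.42322.1.S1_at passed the filter of a mean signal of at least 100 and met the rule there. With a log2 fold change of -0.767, BCL2L11 MmugDNA.42322.1.S1_at lay only just past the fold of 1.7, and it did not meet the rule after quantile normalization. Both picks had the minimum of 6 of 8 pairs. With signals under 50 set to 50, neither met the rule.

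None of the other listed apoptosis genes that could be tested was called. Of 39 caspases, BCL2 relatives, mitochondrial effectors, inhibitors and death receptor genes, 15 had a tested probe set with a single symbol. Of these 15, 0 were called in any of the 7 comparisons. Of the 12 listed guardians and BH3-only genes, only 3 were tested. The paper reports HRK, a BH3-only gene, as higher in deprived layers by array and by quantitative PCR. A value for HRK is not given here. In parvocellular layers the log2 fold change was positive for 6 of them and negative for 9, and its median was -0.03. The smallest p-values were those of DFFA, the inhibitor that holds the caspase-activated DNase in check, at 298 ± 77.4 in deprived and 380.0 ± 85.5 in nondeprived layers (log2 fold change -0.36, SE 0.14, adjusted p = 0.262), and of VDAC1, a channel of the outer mitochondrial membrane, at 17562 ± 1207 in deprived and 19239 ± 2057 in nondeprived layers (-0.13, adjusted p = 0.623).

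Markers of glia were examined in the same layers. GFAP, the intermediate filament of reactive astrocytes, rose to 7563 ± 3633 in deprived parvocellular layers, against 3283 ± 596 in nondeprived ones (log2 fold change 1.07, adjusted p = 0.0184 in limma). It was the 1 astrocyte marker called of 5 tested, of which 4 were positive and 1 negative, with a median of 0.23. The summed astrocyte markers, GFAP included, ranged from 27905 to 61589 in deprived and from 28761 to 46235 in nondeprived layers. All 7 microglial markers had a positive log2 fold change, none with an adjusted p under 0.05, and their sum ran from 2453 to 4987 in deprived and from 2165 to 3182 (3181.5) in nondeprived layers. Of the general neuron markers, ENO2 and SYT1 had log2 fold changes of -0.24 (unadjusted p = 0.0406) and -0.07 in parvocellular layers, and of -0.65 and -0.25 in magnocellular layers, none called in limma. The summed markers of GABAergic neurons, GAD1 and GAD2, ran in parvocellular layers from 9469 to 16045 where deprived, against 9296 to 14867 where nondeprived. In magnocellular layers that sum was 18450 (18449.8) to 24464 in the deprived arrays, against 14408 to 16724 in the nondeprived ones, with neither gene called. The deprived arrays there include the one that stands apart, and the median log2 fold change over all probe sets was 0.13. How many probe sets separate these groups in the same way was not counted. None of the defining markers of glia was at 0, but array signals include background, so this cannot by itself show that glia were present. Over the 24 arrays, with LGN means removed, BCL2 had a correlation of 0.474 with GFAP and of 0.49 with the summed microglial markers, BIRC2 MmuSTS.1002.1.S1_at of 0.404 and 0.315, and APAF1 MmuSTS.3465.1.S1_at of 0.339 and 0.37. The part of these cells in the readings of the members was not tested.

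In magnocellular layers, with 4 against 4 arrays, 0 of 22 members and 0% of all probe sets were called, and no member reached an unadjusted p under 0.05, against 5.68% of all. Over all probe sets the median log2 fold change was 0.13, so values there are read against that shift. BBC3 had a log2 fold change of 0.94 (95% interval -0.02 to 1.90) and BAK1 one of 0.89 (95% interval -0.30 to 2.08). BBC3 read 590.0, 286, 235 and 138 in the deprived magnocellular layers, against 281, 163, 99.3 and 89.6 in the nondeprived ones. BAK1 read 308, 128, 95.8 and 35.0 in deprived layers, against 107, 104, 35.0 and 28.8 in nondeprived ones. The readings of 590.0 and 308 are those of the array that stands apart, without which the log2 fold changes of BBC3 and BAK1 were 0.63 and 0.68.

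APAF1 MmuSTS.3465.1.S1_at read 173, 167, 127 and 82.9 in deprived magnocellular layers, against 101, 96.3, 87.4 and 86.4 in nondeprived ones, with 3 deprived arrays above all the nondeprived ones. The fitted log2 difference was 0.51, with an SE of 0.45 and an adjusted p of 0.865. The same probe set of BIRC2 as above, MmuSTS.1002.1.S1_at, read 15631, 13395, 12316 and 10713 in deprived layers, against 14996, 12338, 11130 (11129.6) and 9745 in nondeprived ones (0.12, 95% interval -0.47 to 0.70). BCL2 read 249, 185, 140.0 and 13.6 in deprived layers, against 83.6, 83.5, 59.7 and 30.3 in nondeprived ones (0.70, 95% interval -0.91 to 2.31).

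BCL2L11 MmugDNA.42322.1.S1_at had fitted effects of opposite sign in the 2 layer classes. The interval in magnocellular layers held 0, and the difference between classes did not pass after adjustment. In magnocellular layers the deprived arrays read 197, 185, 155 and 113, against 159, 135, 74.3 and 64.3 in nondeprived ones, with the deprived layer higher in 4 of 4 pairs. The share of all probe sets with such pairs was not counted. The log2 fold change there was 0.66 (95% interval -0.285 to 1.605, adjusted p = 0.837 in limma), in a comparison where 60.1% of all probe sets were positive. The deprivation effect in parvocellular minus that in magnocellular layers was -1.43 (95% interval -2.73 to -0.13, unadjusted p = 0.0327), with an adjusted p of 0.727 in limma. For this difference of effects 0 of 22 members and 0% of all probe sets were called, with 1 member and 6.75% of all at an unadjusted p under 0.05. The other tested BCL2L11 probe sets gave differences of -1.93, 0.23, 0.78 and -0.05. By the fold rule with 4 of 4 pairs, 1 member was picked in magnocellular layers, BCL2L11 MmugDNA.14051.1.S1_at, as against 6.86% of all probe sets. It is dim, at 95.5, 64.9, 38.6 and 17.7 in deprived magnocellular layers, against 43.6, 28.4, 22.6 and 5.44 in nondeprived ones, with no array of either group at 100. The pick was lost in all 4 alternatives of the rule, but the filter on mean signal leaves this probe set (mean 40.0) out beforehand. With signals under 50 set to 50 the log2 fold change of BCL2L11 MmugDNA.14051.1.S1_at was 0.33, so the size of its difference is not known.

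The second question was the level of these genes by layer class. Parvocellular layers differed from magnocellular layers at 1 of 22 probe sets, where 3.6% of all probe sets were called (1355, 846 of them higher in parvocellular layers). This was BCL2L11 MmugDNA.43021.1.S1_at, at 621, 842 and 1143 (lowest, median, highest) in 16 parvocellular arrays, against 508, 603 and 861 in 8 magnocellular arrays. Its means were 844 ± 140.3 in parvocellular and 631 ± 124 in magnocellular layers (SD, n = 16 and n = 8), and its log2 difference was 0.42 (SE 0.12, 95% interval 0.18 to 0.67, adjusted p = 0.049 in limma). The call sits at the threshold: without 1 array at a time it held in 5 of 24 cases, and it was lost after quantile normalization (0.38, adjusted p = 0.0925) and with the GAPDH ratio in the model (0.47, adjusted p = 0.0859).

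The other probe sets of BCL2L11 gave 0.51, 0.22, -0.12 and -0.55 in that comparison, none called. APAF1 MmuSTS.3465.1.S1_at averaged 154 ± 44.8 in parvocellular and 115 ± 36.6 in magnocellular layers, with a log2 difference of 0.41 (SE 0.17, 95% interval 0.06 to 0.76, adjusted p = 0.211). BAX MmugDNA.5655.1.S1_at averaged 50.1 ± 27.3 in parvocellular and 87.0 ± 43.6 in magnocellular layers (-0.83, adjusted p = 0.334). Of 22 members, 6 were positive, against 46.1% of all probe sets, and the median was -0.10 against -0.03.

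**Figure D4:**
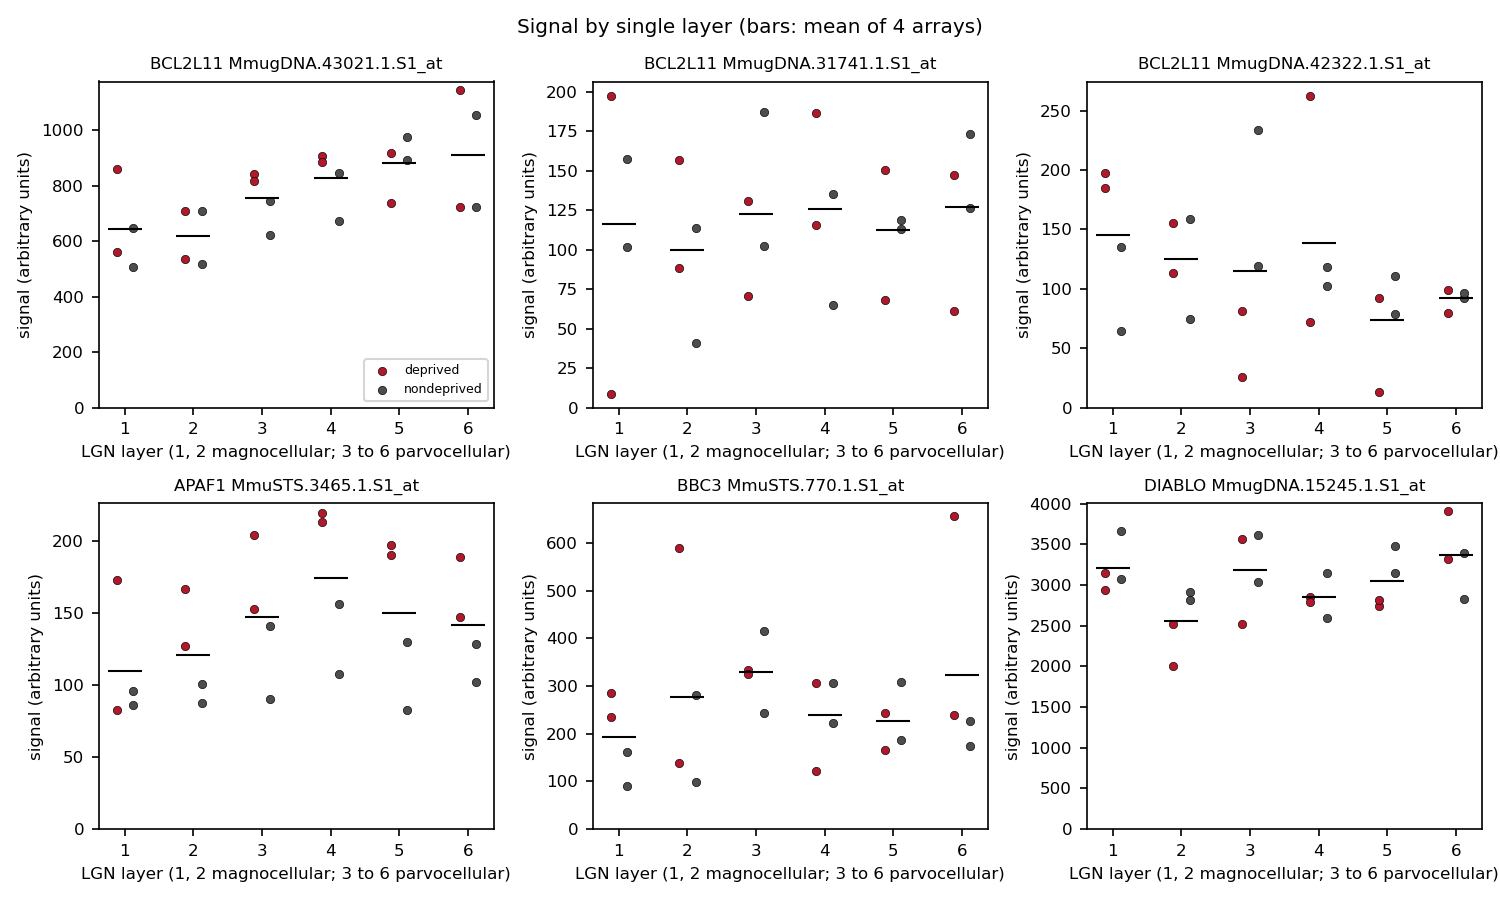
Signal by single layer for 3 probe sets of BCL2L11 and 1 each of APAF1, BBC3 and DIABLO; y, signal in arbitrary units from 0; x, LGN layer, 1 and 2 magnocellular, 3 to 6 parvocellular; red, deprived; grey, nondeprived; bars, mean of 4 arrays. BCL2L11 MmugDNA.43021.1.S1_at had its lowest mean in layer 2 (618) and its highest in layer 6 (911).

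By single layer 0 of 22 members were called in the F test across 6 layers, where 0.226% of all probe sets were (85). None of the members had an unadjusted p under 0.05, against 7.8% of all probe sets. BCL2L11 MmugDNA.43021.1.S1_at averaged 911 ± 221 in layer 6, 880.2 ± 101 in layer 5, 827 ± 106 in layer 4, 756 ± 99.0 in layer 3, 644 ± 156 in layer 1 and 618 ± 105 in layer 2 (SD, n = 4 each). Each step between neighbours in that order was smaller than the larger of the SDs of the 2 layers, and the F test gave an adjusted p of 0.761. APAF1 MmuSTS.3465.1.S1_at averaged 174 ± 52.8 in layer 4, 150.2 ± 54.1 in layer 5, 147 ± 46.7 in layer 3, 142 ± 36.4 in layer 6, 121 ± 35.1 in layer 2 and 110 (109.7) ± 42.6 in layer 1, with an adjusted p of 0.903. DIABLO averaged 3364 ± 442 in layer 6, 3207 ± 317 in layer 1, 3183 ± 515 in layer 3, 3045 ± 338 in layer 5, 2848 ± 229 in layer 4 and 2563 ± 410 (410.1) in layer 2, with an adjusted p of 0.762. For these genes, too, neighbours in the order lay within the SD of a layer.

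Outer (layers 5 and 6) and inner (layers 3 and 4) parvocellular layers differed at 0 of 22 members and 0% of all probe sets, and 8.98% of all had an unadjusted p under 0.05. Here 1 member had an unadjusted p under 0.05, the third BIRC2 probe set, with a log2 difference, outer minus inner, of -0.35 (95% interval -0.70 to -0.00, adjusted p = 0.555). The median over all probe sets was -0.10, against -0.13 over the members, of which 5 of 22 were positive.

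Correlations among the members over the arrays had both signs. With LGN means removed, the 208 pairs of probe sets from different genes had correlations between -0.591 and 0.859 with a median of 0.17, over 24 arrays that share LGNs and animals. Probe sets of the same gene were no closer, with 23 pairs between -0.316 and 0.877 and a median of 0.144. The closest pair of different genes was BCL2L1 MmugDNA.11538.1.S1_at with ENDOG, at 0.859, followed by BAX MmugDNA.6935.1.S1_at with ENDOG, at 0.82. Both were similar without the array that stands apart (0.843 and 0.802). Contralateral layer 2 of the 2-month animal (nondeprived) held the highest reading of all 3, with 4855 for ENDOG, 1026 for BAX and 667 for BCL2L1. Several of these probe sets also followed the median signal of the array, BAK1 at 0.625, BBC3 at 0.538, BAX MmugDNA.6935.1.S1_at at 0.51 and ENDOG at 0.381, and without the array that stands apart at 0.527, 0.4, 0.305 and 0.243 in the same order. APAF1 MmuSTS.3465.1.S1_at ran against ENDOG, at -0.533. The lowest value, -0.591, was that of DIABLO with BIRC2 MmuSTS.3470.1.S1_at, which had correlations of opposite sign with the GAPDH ratio, -0.607 for DIABLO and 0.51 for that BIRC2 probe set (-0.601 and 0.659 without the array that stands apart). The part of array brightness and of RNA quality in these correlations was not tested.

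**Figure D5:**
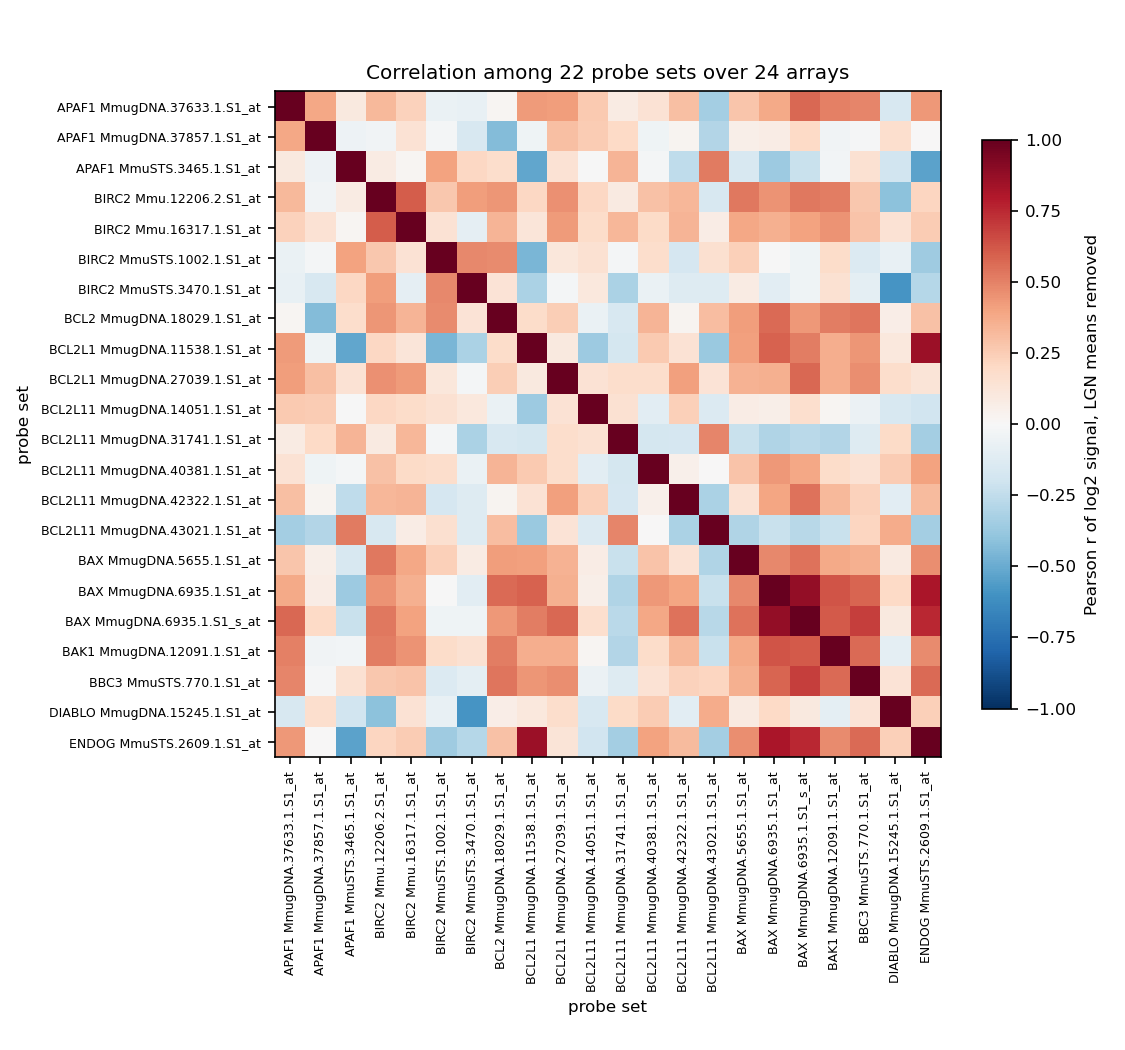
Pearson correlation of log2 signal among the 22 member probe sets over 24 arrays, with the mean of each LGN removed; rows and columns, probe sets in the same order; colour, r from -1 (blue) to 1 (red). The red block of BAX, BAK1, BBC3 and ENDOG includes the value of 0.82 between BAX and ENDOG, and DIABLO with BIRC2 MmuSTS.3470.1.S1_at was lowest, at -0.591.

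Likeness was ranked over 14542 probe sets of single symbol and mean signal of 100 or more; those whose pattern over the 24 arrays was most like that of APAF1 MmuSTS.3465.1.S1_at were TYMS (r = 0.874), DUSP16 (0.864), SOX4 (0.847), HTR7 (0.831) and WIPF1 (0.829). APAF1 was taken as the starting point for its small p-value in parvocellular deprivation, so genes that follow it over these arrays share that difference by the way they were picked. Among them DUSP16 and HTR7 had log2 fold changes of 0.87 and 1.21 for parvocellular deprivation, given as a description. Those most like BCL2L11 MmugDNA.43021.1.S1_at were GINM1 (0.857), TRIM63 (0.847), LOC713490 (0.833), FOSL2 (0.815) and FCSK (0.812).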

How the data were processed

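The authors pooled laser-captured sections of each LGN layer, amplified the RNA in 2 rounds, hybridized 1 array a layer and had GCOS compute a signal for each probe set. What the authors deposited is that linear signal intensity, in arbitrary units, scaled so that every array has a mean of 500.0 once 2% of values are trimmed from both ends. The genome build is not given in the sources used here, and columns of presence or change calls were not used here. The series table was the only table used, with 52865 probe sets, of which 99 controls were left out. Symbols come from the platform annotation, which can be old: 24956 probe sets have 1 symbol, 361 several and 27449 none. No sequence is printed.

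Signals under 1 were set to 1 and log2 was taken. Probe sets with a signal of at least 100, the study's minimum, in at least 1 array were tested in R 4.3.3 with limma 3.58.1 (lmFit, eBayes with a trend), the LGN being a fixed block, and p-values adjusted by Benjamini and Hochberg over all 37623, with a threshold of 0.05. Intervals are 95%. The model was also run on simulated data, with independent noise, no LGN or animal effects, and changes only in probe sets of mean signal of at least 100. That run therefore does not test the model on dim probe sets or on layers that share animals. The number of arrays limits the precision. Alternatives were quantile and median scaling, 16 added to the signal, signals under 50 set to 50, other filters, no trend, no block, layer pairs as a block, the GAPDH ratio as covariate, each animal alone and each array left out. The fold rule and its alternatives were chosen after seeing the data. Named were all members, of the other listed apoptosis genes those called or else the 2 with the smallest p in parvocellular deprivation, and the 5 genes most correlated with 2 members. For counts of genes and markers, the probe set of highest mean log2 signal stands for a gene. The members and lists were chosen with earlier results of these data known.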

Additional observations from a re-analysis of the deposited data

Results flagged for a closer look

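In 88 groups of 4 or 8 arrays, 5 had a highest or lowest reading far from the next one, by Dixon's criterion at 95%; chance marks about 1 group in 20. APAF1 MmugDNA.37857.1.S1_at read 8.82 in contralateral layer 2 (nondeprived, magnocellular) of the 4-month animal, and the next lowest array of its group read 63.8. BCL2L1 MmugDNA.11538.1.S1_at read 161 in ipsilateral layer 6 (nondeprived, parvocellular) of the 4-month animal, with 269.8 next. BCL2L11 MmugDNA.14051.1.S1_at read 5.55 in contralateral layer 5 (nondeprived, parvocellular) of the 4-month animal, with 30.8 next. BCL2L11 MmugDNA.42322.1.S1_at read 234 in contralateral layer 3 (nondeprived, parvocellular) of the 2-month animal, with 119 next. BAX MmugDNA.5655.1.S1_at read 26.5 in ipsilateral layer 2 (deprived, magnocellular) of the 4-month animal, with 102.5 (102.503) next.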

How the results depend on the processing

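The count of members called for deprivation in parvocellular layers, 0 as reported, was 1 with signals under 50 set to 50 (APAF1, adjusted p = 0.0492), 2 with a mean signal of at least 100, and 0 to 1 with 1 array left out. Between layer classes the count of 1 was 0 under quantile normalization, median scaling, 16 added to the signal, signals under 50 set to 50, no filter, no trend, no replicate block, the GAPDH ratio as covariate, and each animal alone; it stayed 1 with a mean signal of at least 100 and without the array that stands apart, and was 0 to 1 with 1 array left out. The BCL2L11 difference behind it ran from 0.26 to 0.59 in these alternatives, with adjusted p of 0.0304 to 0.502. The counts for deprivation in magnocellular layers, the outer layers, the single layers, the durations and the difference between classes stayed 0 in every alternative and with each array left out. By the fold rule, the 2 members in parvocellular layers became 0 with signals under 50 set to 50, and 1 with a mean signal of at least 100 or quantile normalization. The 1 member in magnocellular layers became 0 in all 4 alternatives. The filter on mean signal leaves out BCL2 (mean 91.0) and BCL2L11 MmugDNA.14051.1.S1_at (mean 40.0) before the rule is applied. With layer pairs within an LGN as a replicate block, 0 members were called in parvocellular layers. The cause of these shifts was not tested. Over all probe sets the 365 calls in parvocellular layers became 76 with median scaling, 15 without the trend, 28 without the replicate block and 598 with a mean signal of at least 100, and 7 and 1 in the animals of 2 and 4 months alone. In magnocellular layers the median of all probe sets moved to -0.01 with quantile normalization and -0.11 with median scaling, against 0.13. In parvocellular layers 13 of 22 members kept the sign of the deprivation effect in every alternative, and 10 also with each array left out. Dim probe sets, near or under a signal of 100, bear the widest intervals.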
